A study of Mus musculus with 2 samples.

Results

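Mature neutrophils that carry transcripts of Il1b and Cxcr2 were followed in mouse bone marrow. They were chosen by 4 genes: among cell barcodes that reached 500 UMIs and 300 genes and did not exceed 10% mitochondrial UMIs, a member held 5 or more UMIs of Il1b, 1 or more of Cxcr2, 1 or more of Csf3r and under 50 of Ltf. A UMI, or unique molecular identifier, stands for 1 captured RNA molecule. The rule found 1981 members among 17459 kept cells, 1381 of 10665 in a femur library and 600 of 6794 in an ectopic library. The femur library came from ordinary femur marrow. The ectopic library came from bone that had formed under the skin around an implant of 40 mg of beta-tricalcium phosphate with 8 µg of BMP-2, a bone-inducing growth factor, and was collected after 4 weeks. Hematopoietic cells of both libraries came from wild-type C57BL6J mice. Each library also holds CAR cells, the Cxcl12-rich stromal cells of marrow, from Cxcl12-GFP reporter mice, which were digested with collagenase, depleted of blood and vessel cells, sorted and mixed in. The labels give no genotype for a single barcode. Age and sex of the mice and the number pooled per library are not given in the sources used here. There was 1 library per site. No replicate check of any difference was therefore possible, and all intervals are 95% and cover counting error only.

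Neutrophils pass through granule stages in the marrow before they leave it. Azurophil granule genes such as Elane and Mpo come first, and specific granule genes such as Ltf, Camp and Ngp next. Gelatinase granule genes such as Mmp9 follow, and Mmp8 and Retnlg are also high after the Ltf-rich stage. The chemokine receptor Cxcr2 and the G-CSF receptor Csf3r rise late and help release the cells into blood. Il1b encodes interleukin-1 beta, a cytokine that is made as an inactive precursor and cut by caspase-1 after an inflammasome has formed. Ptgs2 encodes the inducible cyclooxygenase of prostaglandin synthesis. Transcription of both genes in myeloid cells is driven by NF-kB and AP-1 factors, and NF-kB also switches on its own inhibitors, among them Nfkbia and Tnfaip3.

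Members were compared with earlier neutrophils of the same libraries. Cells with Csf3r and at least 50 Ltf UMIs are called Ltf-rich, and cells with Csf3r, under 50 Ltf UMIs, at least 5 Retnlg UMIs and at least 1 Mmp8 UMI that are not members are called intermediate. There were 2144 Ltf-rich and 1455 intermediate cells in the femur library and 1258 and 713 in the ectopic library. The rule itself narrowed the femur library from 6466 cells with Csf3r to 4481 that also had Cxcr2, 2940 that also had under 50 Ltf UMIs and 1381 that also had at least 5 Il1b UMIs. The same steps in the ectopic library left 3496, 2258, 1355 and 600 cells. Few cells passed the Il1b threshold without being members, 129 from femur marrow and 45 from ectopic marrow, of which 51 and 24 lacked a Cxcr2 UMI.

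Members were a smaller share of the ectopic library. They made up 12.9% of kept femur cells (12.3 to 13.6) and 8.83% of kept ectopic cells (8.17 to 9.53), an ectopic over femur ratio of 0.682 (0.619 to 0.751). All 3 neutrophil groups together were also a smaller share, 46.7% of femur and 37.8% of ectopic cells, and the number of CAR cells added to each library enters this denominator. Among the 4980 femur and 2571 ectopic neutrophils of the 3 groups, members were 27.7% (26.5 to 29.0) and 23.3% (21.7 to 25), a ratio of 0.842 (0.763 to 0.927). The ratio was 0.918 (0.809 to 1.04) with Il1b, Cxcr2 and Csf3r read after thinning to 1500 UMIs and at least 2 Il1b UMIs asked for. That interval includes equal shares. Cells under 1500 UMIs were left out, and Ltf, Retnlg and Mmp8 were read at full depth. Ltf-rich cells went the other way, 43.1% of femur and 48.9% of ectopic neutrophils. Of members and intermediate cells alone, 48.7% were members at the femur site and 45.7% at the ectopic site, a ratio of 0.938 with an interval of 0.851 to 1.03, which includes equal shares.

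Members held fewer UMIs per cell than the earlier neutrophils and more genes for the same number of UMIs. The median was 5477 UMIs in femur and 6520 in ectopic members, against 7622 and 8497 in intermediate and 13571 and 15288 in Ltf-rich cells. After thinning to 1000 UMIs, the median femur member showed 588 genes and the median ectopic member 583, against 533 and 534 for intermediate and 501 and 498 for Ltf-rich cells. Mitochondrial genes gave a median of 0.157% and 0.146% of members' UMIs. In all, 9503700 UMIs of femur members and 4524884 of ectopic members were summed, and levels are given as CPM, a gene's UMIs per 1000000 of that sum.

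Most of the 12 neutrophil markers were higher in the members than in the other kept cells. S100a8 and S100a9, the calprotectin subunits, stood at 53652 and 67132 CPM in femur members and at 61567 and 77924 CPM in ectopic members. They were not far below that in the other kept cells, at 49243 and 58117 CPM in the femur library and at 42015 and 52081 CPM in the ectopic library. Ly6g and Wfdc21 went the other way. Ly6g was at 185 and 216 CPM in members against 264 and 275 CPM in the other kept cells. Wfdc21 was at 1533 and 1417 CPM against 2108 and 1722 CPM. The list summed to 146931 and 166389 CPM in members against 230452 and 245921 CPM in intermediate cells. The 8 eosinophil markers summed to 22.2 CPM in femur members against 25.4 in ectopic members, and Epx had no UMI in any member, which at 3 UMIs per library allows up to 0.316 and 0.663 CPM. The complement genes of macrophages were near 0, with C1qa at 0.842 and 0.442 CPM. Adgre1 (F4/80), of the same macrophage list, was at 75.2 and 95.3 CPM in 29.5% and 33.2% of members, above the 31.5 and 36.0 CPM of the other kept cells. Of the basophil list only Hdc, the histidine decarboxylase gene, was broadly present, in 96.8% of femur and 96.0% of ectopic members, while Mcpt8 was in 0.652% and 0.667%. The monocyte list summed to 858 CPM in femur and 801 CPM in ectopic members. Its 12 genes were unequal in the members. Ly6c2 was in 45.9% of femur and 51.2% of ectopic members, Csf1r in 38.7% of either, Ctss in 16.9% and 16% and Treml4 in 14.8% and 17.7%. Ccr2 was in 5.72% and 5%, F13a1 in 6.81% and 7.33%, and each of the other 6 in 6.01% or less. B lineage markers summed to 1368 and 1212 CPM, with Ebf1 the most abundant at 629 and 541 CPM, and Cd79a was in 7.75% and 7.67% of members. CAR cell markers summed to 187 and 166 CPM, and 5 cells carried 85.4% and 92.6% of the members' Cxcl12 UMIs. The part of other cells' RNA in the results below was not tested beyond the values without such cells.

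A small set of members carried RNA of other cells. At least 3 UMIs of B lineage, T and NK, monocyte or erythroid markers were found in 114 femur members (8.26%) and 40 ectopic members (6.67%). A doublet score placed 129 femur members (9.34%) and 32 ectopic members (5.33%) among the cells most like mixtures of 2 cells. The number of such cells was set in advance by library size, at 0.8% for every 1000 kept cells. It left 9755 of 10665 kept femur cells and 6425 of 6794 kept ectopic cells. The members' shares, and the gap between the libraries, are to be read beside that setting. These members are included below unless stated. Of the barcodes, 26 occurred in both libraries, and 3 of them were femur members and 4 were ectopic members, with none a member in both.

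The 4 rule genes and Ptgs2 differed in how far they marked members off. Il1b reached 2252 CPM in femur and 2139 CPM in ectopic members, against 105 and 85.8 CPM in intermediate and 39.3 and 14.9 CPM in Ltf-rich cells. Members held 85.2% of all Il1b UMIs of the kept femur cells and 88.1% of those of the kept ectopic cells. Ptgs2, which the rule did not use, followed the same order, with 519 and 751 CPM in members, 146 and 212 CPM in intermediate and 16.2 and 11.1 CPM in Ltf-rich cells. Members held 61.6% of the femur library's Ptgs2 UMIs and 62.3% of the ectopic library's. Cxcr2 was more evenly spread, with 844 and 986 CPM in members and 624 and 688 CPM in intermediate cells. Csf3r was at 2548 and 2573 CPM in members against 1097 and 1070 CPM in intermediate cells. Ltf was at 130 and 119 CPM in members against 9198 and 9982 CPM in Ltf-rich cells, a direction that the rule sets.

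**Figure D1:**
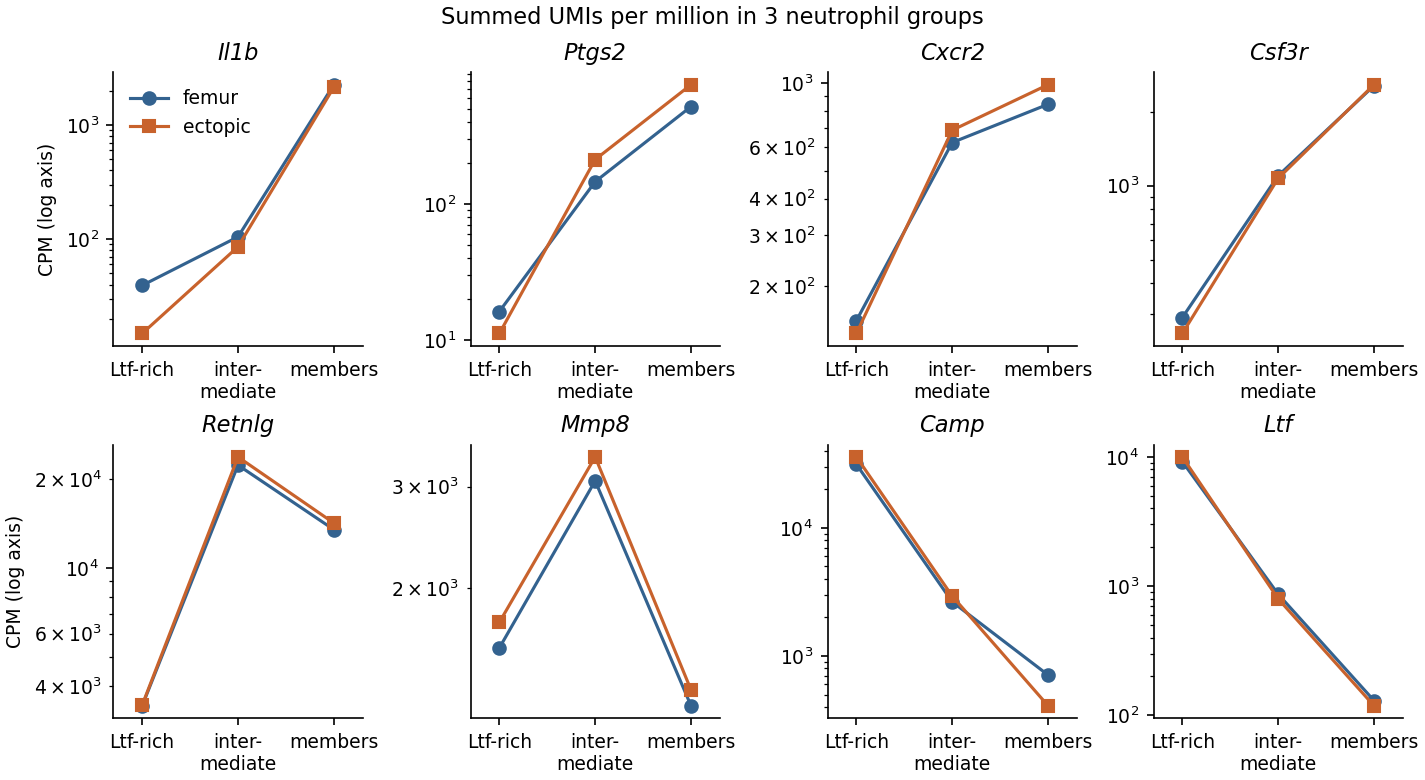
CPM (log axis) of 8 genes in Ltf-rich cells, intermediate cells and members, for the femur library (circles) and the ectopic library (squares), 1 point per library and group. Il1b stands at 2252 and 2139 CPM in members, Retnlg and Mmp8 are highest in intermediate cells, and Camp and Ltf are highest in Ltf-rich cells. The groups were gated on Csf3r, Ltf, Retnlg, Mmp8, Il1b and Cxcr2.

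Few B lineage cells, which should lack these genes, held a UMI of them. With cells thinned to 1000 UMIs each, which left out 2 femur members, 84.5% of the femur members and 84.0% of the ectopic ones showed Il1b, against 0.486% and 0.189% of B lineage cells. The rule asked for Il1b in every member, so its share among members is a description. The share with Ptgs2 was 28.6% (26.3 to 31.1) for thinned femur members and 35.5% (31.7 to 39.5) for thinned ectopic members, against 0.203% and 0.0944% of B lineage cells. Without thinning a Ptgs2 UMI was found in 49.3% of femur and 54.0% of ectopic members. Median depths before thinning were 5477 and 6520 UMIs in members and 6328 and 6619 UMIs in B lineage cells.

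Many genes separated members from intermediate cells. Past 1.5-fold, 1257 genes were higher and 376 lower in the femur library, and 1584 and 567 in the ectopic library. In both libraries at once, 813 of 8801 measured genes (9.24%) were higher in members and 289 (3.28%) were lower. A gene counted as measured with at least 50 UMIs over both groups in each library. The rule chose members on this contrast, so these counts and the values that follow describe the rule's product. TMM scaling shifts every ratio of this contrast down by 0.21 (femur) or 0.20 (ectopic) on the log2 scale, and the split then becomes 395 higher and 527 lower genes. The genes named as higher or lower in the following paragraphs differed by more than that shift, each in the direction given.

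Besides Il1b, the genes highest in members among those of at least 200 CPM in both libraries were Fgl2, Egr1, Ptgs2, Ifitm1 and Pla2g7. Fgl2, a fibrinogen-like secreted protein, was 4.47-fold higher in femur and 4.08-fold higher in ectopic members than in intermediate cells. Egr1, an immediate early transcription factor, was 4.00-fold and 3.48-fold higher. Ptgs2 was 3.57-fold and 3.55-fold higher. Pla2g7, which encodes the hydrolase of platelet-activating factor, was 3.31-fold and 3.15-fold higher and reached 508 and 540 CPM. Ifitm1, an interferon-inducible membrane protein, was 3.53-fold and 3.33-fold higher. Clec7a, the beta-glucan receptor dectin-1, was 2.65-fold and 2.63-fold higher, and Pim1, a kinase induced by cytokine receptors, 2.37-fold and 2.50-fold. The same rule also named H2-Q10, Marcks, Maml3, Tspan13, Csf3r, St3gal6 and Dusp1, with ratios between 2.14 and 3.12 in the 2 libraries.

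Ltf, Ngp and Camp of the specific granules were among the lowest genes. Ltf stood at 0.150 of the intermediate level in femur cells and 0.149 in ectopic cells, and Ngp, which encodes neutrophilic granule protein, at 0.176 and 0.160. Camp, the cathelicidin precursor, stood at 0.269 and 0.140, but 5 cells carried 46.2% of the Camp UMIs of femur members. Cd177, a surface protein of neutrophils, was at 0.298 and 0.303, and Mmp8, neutrophil collagenase, at 0.407 and 0.394. Itgb2l, Syne1, Ly6a2, Adpgk and Ifitm6 completed the 10 lowest. By list, 10 of 13 specific granule genes, 6 of 9 azurophil genes and 6 of 12 gelatinase granule genes were lower in members in both libraries, against 3.28% of all genes. Retnlg, at 13471 and 14176 CPM, was at 0.606 and 0.598 of the intermediate level, and both it and Mmp8 were used to gate the intermediate cells. The exception in the gelatinase list was Wfdc17, which was 5.66-fold and 7.02-fold higher in members at 436 and 191 CPM.

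**Figure D2:**
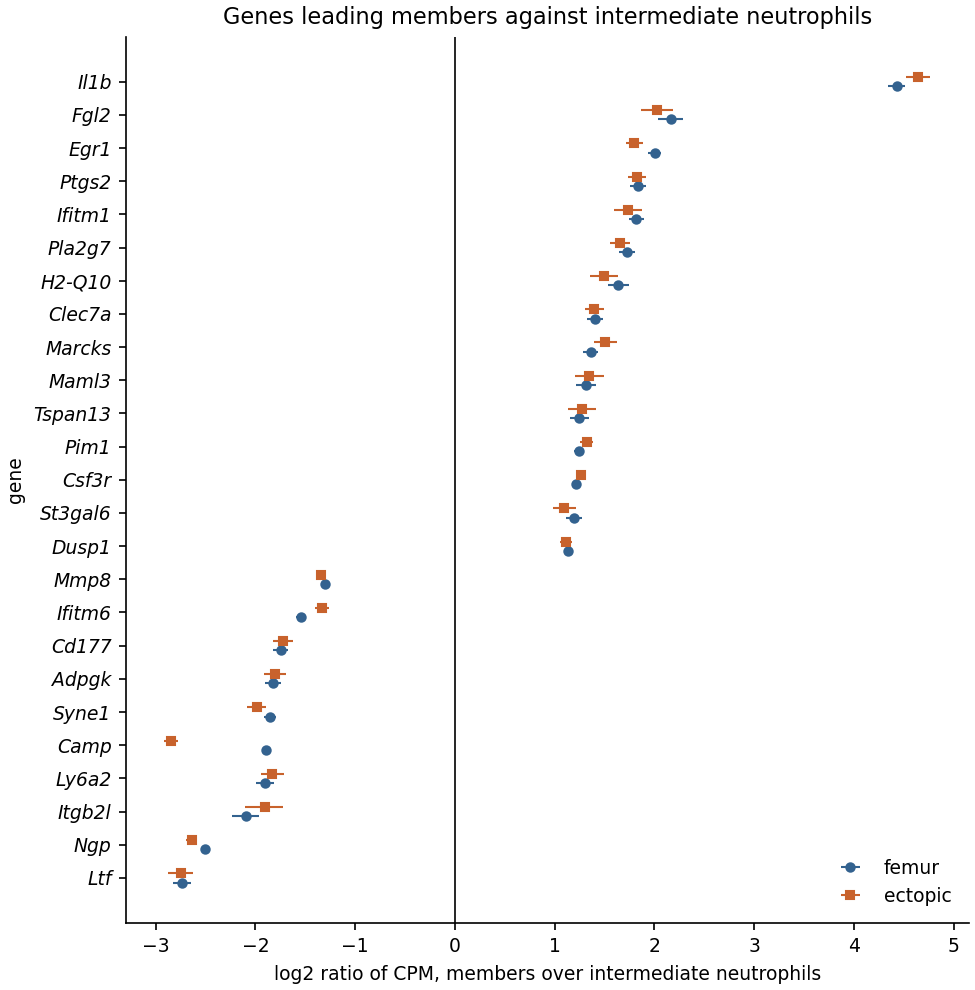
Log2 ratios of CPM, members over intermediate neutrophils, for the 15 highest and 10 lowest named genes, in the femur (circles) and ectopic (squares) library, with counting intervals as bars. The 2 libraries lie close together for most genes, and Camp is the gene with the widest gap (0.269 against 0.140 before taking logs).

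The immediate early list and the list of NF-kB feedback and IL-1 response were higher in members as groups. Of 24 measured immediate early genes, 18 were higher and 1 was lower in both libraries, against 9.24% of all genes that were higher. Junb, an AP-1 subunit, was at 2818 and 2705 CPM in members against 1321 and 1278 CPM in intermediate cells. Fos was at 1440 and 1583 CPM against 714 and 689 CPM. The 1 lower gene was Fosl1. Of 22 measured genes of NF-kB feedback and IL-1 response, 11 were higher and none was lower. Nfkbia, the inhibitor of NF-kB, was 1.96-fold and 1.84-fold higher, Tnfaip3 (A20, a ubiquitin editor of the same pathway) 2.11-fold and 1.94-fold, and Acod1, which makes itaconate, 1.98-fold and 1.93-fold. Of 14 measured genes of the IL-1 family and inflammasome list, 4 were higher and none lower in both libraries. The prostanoid and leukotriene list did not share this direction, with 2 of 15 genes higher and 3 lower, against 9.24% and 3.28% of all genes.

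Counts of receptor, cytokine and survival genes follow, to be read beside the 9.24% of all genes that were higher and the 3.28% that were lower than in intermediate cells. In the list of growth factor and cytokine receptors, 7 of 19 were higher and 1 was lower. Il13ra1, a receptor chain of IL-13, was 3.77-fold and 4.23-fold higher, and Tnfrsf1b, the TNF receptor 2 gene, 2.33-fold and 2.78-fold. Among 14 measured chemokines and cytokines, 7 were higher and none lower. Csf1, the macrophage growth factor, was 4.62-fold and 4.30-fold higher at a low level of 57.6 and 67.4 CPM, and Ccl6 was 1.66-fold and 1.79-fold higher at 1733 and 1756 CPM. Of 19 survival and death genes, 7 were higher. Pmaip1, which encodes the BH3 protein Noxa, was 4.90-fold and 5.51-fold higher, and Mcl1, its anti-apoptotic partner, 1.56-fold and 1.64-fold. Chemoattractant receptors went both ways, with 4 of 14 higher and 2 lower. Fpr1, the formyl peptide receptor, was at 0.623 and 0.595 of the intermediate level, Ltb4r1, the leukotriene B4 receptor, at 0.557 and 0.536, and Ptafr, the receptor of platelet-activating factor, was higher. Of 29 measured interferon-stimulated genes, 11 were higher in both libraries.

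Il1b, Ptgs2, Cxcl2 and Nfkbia were chosen as genes of the members' cytokine, enzyme, chemokine and inhibitor. Nfkbia, Cxcl2 and, by less than 1.5-fold, Ptgs2 differed between the sites as described below. Upstream sequences of these 4 genes are shown. They are the 250 bases before the RefSeq gene start on build GRCm38.p6, 5′ to 3′ on the gene's strand, and capitals mark matches on either strand to a kappa B pattern, which is 3 G, any 5 bases and 2 C. Il1b lies at chr2:129371140-129371389 on the minus strand, Ptgs2 at chr1:150099781-150100030 on the plus strand, Nfkbia at chr12:55492648-55492897 on the minus strand and Cxcl2 at chr5:90903649-90903898 on the plus strand.
Il1b: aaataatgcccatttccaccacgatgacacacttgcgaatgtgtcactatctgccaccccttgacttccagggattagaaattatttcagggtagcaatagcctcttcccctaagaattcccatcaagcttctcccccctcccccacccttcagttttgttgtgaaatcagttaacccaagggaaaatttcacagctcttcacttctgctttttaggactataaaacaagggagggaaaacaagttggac
Ptgs2: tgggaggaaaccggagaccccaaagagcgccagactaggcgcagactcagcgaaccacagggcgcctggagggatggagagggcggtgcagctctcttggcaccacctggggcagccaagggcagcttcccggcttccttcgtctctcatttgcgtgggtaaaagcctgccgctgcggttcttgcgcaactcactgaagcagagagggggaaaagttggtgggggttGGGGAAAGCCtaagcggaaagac
Nfkbia: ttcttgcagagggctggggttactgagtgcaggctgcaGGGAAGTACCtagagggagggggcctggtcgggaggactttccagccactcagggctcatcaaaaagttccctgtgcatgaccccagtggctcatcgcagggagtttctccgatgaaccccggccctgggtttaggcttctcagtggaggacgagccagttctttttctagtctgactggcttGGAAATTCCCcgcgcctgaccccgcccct
Cxcl2: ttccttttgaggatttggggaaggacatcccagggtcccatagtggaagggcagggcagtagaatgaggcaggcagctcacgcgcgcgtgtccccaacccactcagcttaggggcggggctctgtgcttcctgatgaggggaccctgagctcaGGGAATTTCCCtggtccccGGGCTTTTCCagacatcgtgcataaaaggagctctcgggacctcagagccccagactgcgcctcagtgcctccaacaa
The window of Cxcl2 held 3 matches, of which 2 overlap, that of Nfkbia 2, that of Ptgs2 1 and that of Il1b 0. The pattern is short and was found in 45.8% of all 32851 promoter windows, so a match is no evidence of a site, and no match concerns these letters in this window only. Of the 15 genes highest in members, 13 were looked up and 7 had a match. On either strand, an AP-1 pattern (TGANTCA) was found in 1 of the 13, against 6.75% of all windows, and the PU.1 core (AGGAAG) in 4, against 29.5%. A C/EBP pattern (TT, any 2 bases, G, any base, AA) was found in 6, against 36.8%. In the window of Ptgs2, 1 of the 2 C/EBP matches overlaps the kappa B match. A gene with several starts counted once if any window had a match.

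The members were not uniform in Il1b, and several other genes were ordered with it. The rule used Il1b, so the bands below are a description. A member held a median of 13 Il1b UMIs in either library, with 95% of members at or below 34 UMIs in the femur library and 39 in the ectopic one, and up to 67 and 68. Members were divided into those with 5 to 9 Il1b UMIs (440 femur, 193 ectopic), 10 to 19 (578 and 243) and 20 or more (363 and 164). Median UMIs per cell were similar across these bands, between 5366 and 5666 in the femur and between 6358 and 6949 in the ectopic library. Ptgs2 was at 364, 523 and 712 CPM from the lowest to the highest band in the femur and at 563, 755 and 961 CPM in the ectopic library. Il1r2, the decoy receptor that binds IL-1, was at 998, 1271 and 1656 CPM in the femur and at 1086, 1229 and 1820 CPM in the ectopic library. Nfkbia followed the same order, with 3250, 3883 and 4494 CPM in the femur and 1872, 2204 and 2602 CPM in the ectopic library. Granule and calprotectin genes ran against it. Retnlg was at 16429, 13056 and 10336 CPM in the femur and at 17733, 14978 and 9010 CPM in the ectopic library. Mmp8 was at 1710, 1116 and 870 CPM and at 1718, 1361 and 845 CPM. S100a8 was at 61476, 52454 and 45523 CPM and at 71245, 64456 and 46521 CPM. The order was therefore the same in both libraries for all 6 genes.

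**Figure D3:**
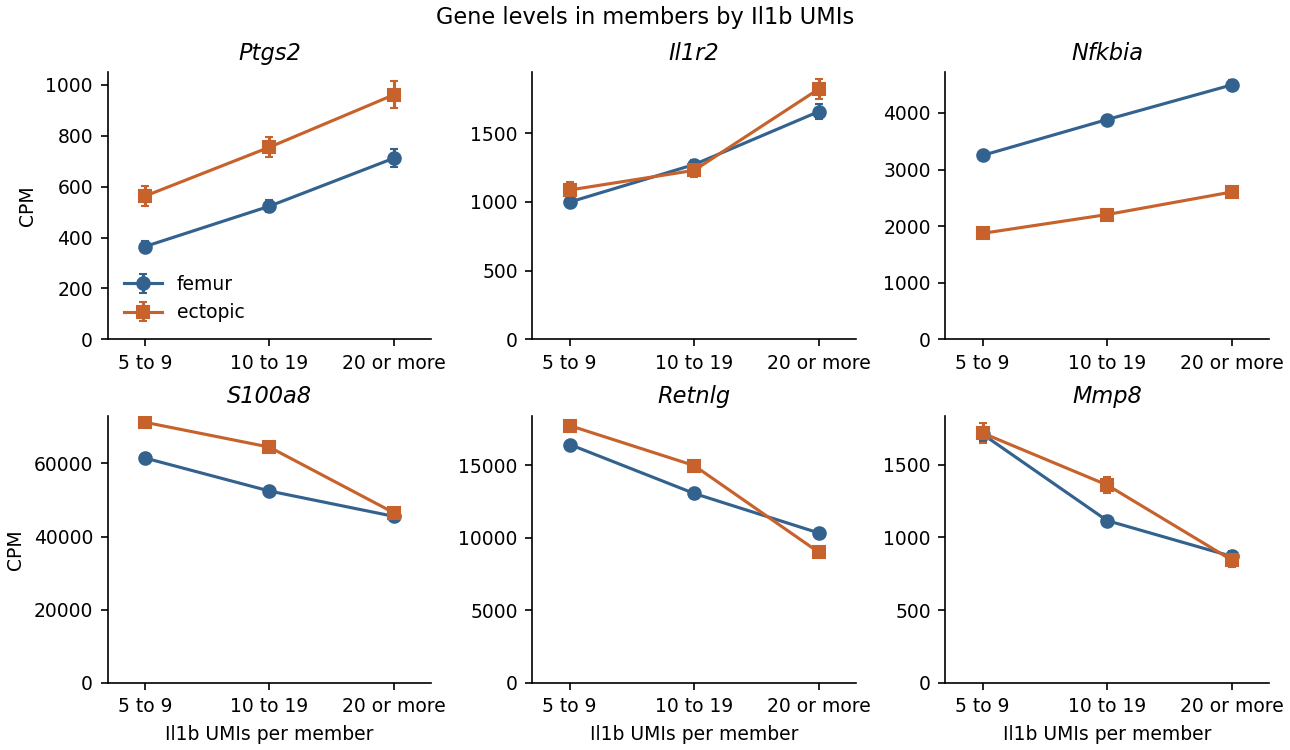
CPM (linear axes from 0) of 6 genes in members with 5 to 9, 10 to 19 and 20 or more Il1b UMIs, for the femur (circles) and ectopic (squares) library, with counting intervals as bars. Ptgs2, Il1r2 and Nfkbia are higher and S100a8, Retnlg and Mmp8 lower in bands of more Il1b.

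Ptgs2 divided the members too. It was absent in 700 femur and 276 ectopic members, and 363 and 214 members held 5 or more UMIs of it. Members with a Ptgs2 UMI had more Il1b than those without, 2604 against 1938 CPM in the femur and 2376 against 1888 CPM in the ectopic library. They also had more Il1r2, 1426 against 1149 CPM in the femur and 1575 against 1112 CPM in the ectopic library. Retnlg was lower in them, 12280 against 14530 CPM and 11093 against 17445 CPM. Cxcl2, a neutrophil-attracting chemokine, differed little by Ptgs2, with 3094 against 2728 CPM in the femur and 1665 against 1768 CPM in the ectopic library.

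Across the Il1b threshold, Retnlg was lower just inside in both libraries, while Ptgs2 was higher just inside in the femur library only. Cells with 3 or 4 Il1b UMIs that met all other conditions numbered 248 in femur marrow and 95 in ectopic marrow, and members with 5 or 6 numbered 216 and 87. The cells just outside held Ptgs2 at 312 and 409 CPM and those just inside at 419 and 400 CPM. Retnlg was at 18654 and 22933 CPM just outside and at 17980 and 18488 CPM just inside. At the Ltf limit there were few cells, 11 and 4 members with 30 to 49 Ltf UMIs and 9 and 2 cells with 50 to 69 that met the rest of the rule.

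Between the sites, most well-measured genes of the members differed little. At 1.5-fold, 234 of 9976 measured genes (2.35%) were higher and 1218 (12.2%) were lower in ectopic members, where measured means at least 50 UMIs over both libraries. The split was 342 and 993 with TMM scaling, which shifts every ratio by 0.08 on the log2 scale. Among 1815 genes with at least 100 CPM in members of 1 library, 10 were higher (0.551%) and 40 lower (2.2%). The median log2 ratio of all measured genes was -0.07. Of the 1218 lower genes, 1054 (86.5%) stood higher in the other kept femur cells than in the members. The same held for 61.1% of the higher genes and 64.5% of the genes called neither way. In the median, 5 cells carried 28.2% of a lower gene's UMIs in femur members, against 10.3% for genes called neither way. For the higher genes this median was 29.7% in ectopic members, against 15.8% for genes called neither way. Without the cells of highest doublet score, 400 of 8379 genes were higher and 589 lower, and on the same 9976 genes as before 638 were higher and 1115 lower. Without members that carry other cells' markers, a setting added after the data were seen, 311 of 8043 were higher and 588 lower, and on the same 9976 genes 503 were higher and 1386 lower. With each member thinned to 1000 UMIs the counts were 182 and 245 of 4305, and with the mean of per-cell CPM 411 and 1094 of 9976. The smaller counts of lower genes without these cells thus went with genes that no longer reached 50 UMIs. On the fixed set, a gene left without UMIs in a library was given 3 UMIs there. Because the femur sum is larger, this can produce higher calls. The 638 and 503 may hold such genes and are not read as a rise. Among genes of at least 100 CPM, 12 were higher and 45 lower without the highest doublet scores, and 8 and 53 without members that carry other markers.

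Intermediate cells showed a similar division between the sites, with 2.12% of 10259 measured genes higher and 12.6% lower in the ectopic library. Their ratios are given beside those of the members for each gene below, as values of the same libraries and not as a second look at independent samples.

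The genes highest in ectopic members relative to femur members, among genes of at least 100 CPM in 1 library, were Cass4, Dusp6, Ccl3, Rasa2, Capg, Clec7a, Ptgs2, Gpx4, Lgals3 and Ncoa3. Cass4, a scaffold protein of the Cas family, was at 137 CPM in the femur members and at 283 CPM in the ectopic ones, a ratio of 2.07 (1.91 to 2.24). A Cass4 UMI was found in 41.1% of femur and 64.3% of ectopic members, and its ratio in intermediate cells was 1.53. Dusp6, a phosphatase that acts on ERK, was at 78.3 and 133 CPM, a ratio of 1.70 (1.52 to 1.89), and 1.49 in intermediate cells. Ccl3, a chemokine for monocytes and lymphocytes, was at 93.3 and 148 CPM, a ratio of 1.59 (1.44 to 1.76). It came from few cells, since 13.2% of femur and 19.8% of ectopic members had a UMI and 5 cells carried 22.9% and 27.7% of the UMIs. Ptgs2 was at 519 and 751 CPM, a ratio of 1.45 (1.39 to 1.51), with 1.46 in intermediate cells and 0.689 in Ltf-rich cells. The 2 abundant genes Ptgs2 and Clec7a, the latter at 1.49 (1.41 to 1.56), thus stayed just under 1.5-fold. Rasa2, Capg, Gpx4, Lgals3 and Ncoa3 had ratios between 1.38 and 1.53. All 10 stayed above 1 without the highest doublet scores, between 1.34 and 1.98.

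The 10 lower genes named by the same rule were Wfdc17, Bcl2l11, Ifitm1, Fkbp5, Pde7b, Sod2, Tsc22d3, Nfkbia, Dusp1 and Thbs1. Wfdc17, a small secreted protein with a whey acidic domain, reached 436 CPM in femur members but 191 CPM in ectopic members, a ratio of 0.438 (0.407 to 0.472), with 0.354 in intermediate cells and 1.33 in B lineage cells. A Wfdc17 UMI was found in 49.8% of femur and 33.3% of ectopic members. Ifitm1 was at 611 and 317 CPM, a ratio of 0.518 (0.488 to 0.549), and 0.549 in intermediate cells. Bcl2l11, which encodes the pro-apoptotic protein Bim, was at 128 and 65.9 CPM, a ratio of 0.516 (0.453 to 0.587), and 0.584 in intermediate cells. Sod2, the mitochondrial superoxide dismutase, was at 107 and 58.6 CPM (0.547, 0.476 to 0.626), and Thbs1, thrombospondin 1, at 209 and 121 CPM (0.578, 0.525 to 0.636), with 0.738 and 0.737 in intermediate cells. Pde7b, a phosphodiesterase, had a ratio of 0.544, and 5 cells carried 37.2% of its UMIs in ectopic members. The Pde7b ratio was 0.357 without members that carry other cells' markers and 0.322 with members thinned to 1000 UMIs.

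**Figure D4:**
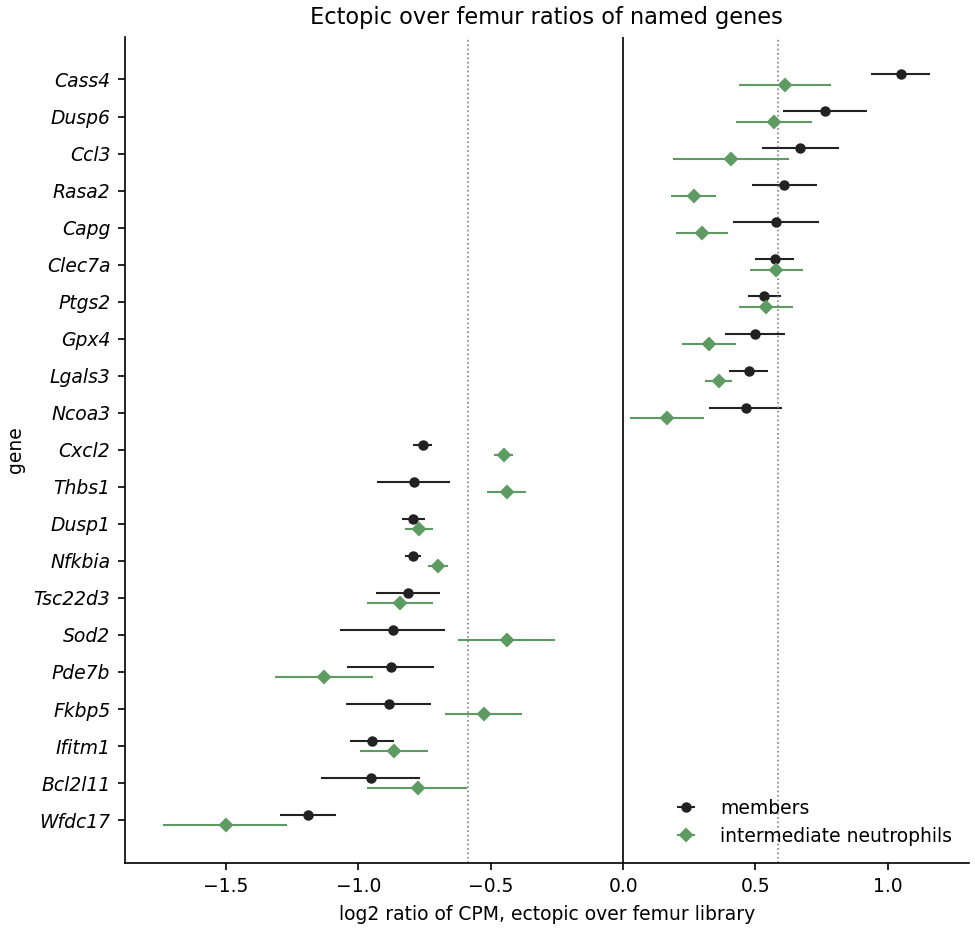
Log2 ratios of CPM, ectopic over femur library, in members (circles) and intermediate neutrophils (diamonds) for the 10 highest and 10 lowest named genes and Cxcl2, with counting intervals as bars. Dotted lines mark 1.5-fold in either direction. All 21 genes lie on the same side of 0 in both cell groups. For Rasa2, Sod2 and Cxcl2 the intermediate cells lie closer to 0.

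The NF-kB inhibitors Nfkbia and Tnfaip3 were lower in ectopic members. Nfkbia stood at 3831 CPM in the members of the femur and at 2210 CPM in those of the ectopic marrow, a ratio of 0.577 (0.564 to 0.590). The ratio was 0.616 in intermediate, 0.632 in Ltf-rich and 0.768 in B lineage cells. Nearly all members held a UMI of Nfkbia, 99.1% and 98.7%. Tnfaip3 was at 670 and 414 CPM, a ratio of 0.618 (0.586 to 0.651), and its ratio was 0.628 in B lineage cells. Nfkbiz, a nuclear regulator induced by IL-1 and Toll-like receptors, was at 2741 and 2226 CPM (0.812), and Nfkbid, another member of the same family, at 184 and 222 CPM (1.20). Of the 22 measured genes of NF-kB feedback and IL-1 response, 4 were 1.5-fold lower and none higher, against 12.2% of all genes that were lower. The list's median log2 ratio was -0.24, against -0.07 for all genes. The 4 were Nfkbia, Tnfaip3, Sod2 and Cd274, the last encoding the checkpoint ligand PD-L1 (0.639). Thinned to 1000 UMIs, 69.5% of femur and 45.5% of ectopic members held 10 or more UMIs of this list.

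The IL-1 system itself was close between the sites apart from Nlrp3. Il1b had a ratio of 0.950 (0.928 to 0.973), 0.879 without the highest doublet scores, and the rule's threshold on Il1b in both libraries bears on this ratio. Il1rn, the secreted receptor antagonist, was at 176 and 192 CPM (1.09), and Il1r2 at 1279 and 1350 CPM (1.06, 1.02 to 1.09), or 0.987 without the highest doublet scores. Nlrp3, the inflammasome sensor, was at 758 and 497 CPM, a ratio of 0.656 (0.625 to 0.687), with 0.772 in intermediate cells. Nlrp3 was found in 50.8% (48.1 to 53.4) of thinned femur and 37.5% (33.6 to 41.5) of thinned ectopic members, against 0.365% and 0% of B lineage cells. Casp4, caspase-11 of the non-canonical inflammasome, was at 91.3 and 66.3 CPM (0.726), and Gsdmd, the pore protein gasdermin D, at 41.4 and 43.1 CPM (1.04). Of the 15 measured genes of this list 2 were lower and none higher, with a median log2 ratio of -0.08, close to the 12.2% lower and the median of -0.07 of all genes. The other lower gene was the receptor gene Il1r1, with under 1.5% of members of either library holding a UMI.

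Most measured chemokines and cytokines were called neither way between the sites, and the exceptions were Cxcl2 and Ccl3. Cxcl2 had 2900 CPM in members of femur marrow against 1715 CPM in members of ectopic marrow, a ratio of 0.591 (0.577 to 0.607), and at 1946 and 1423 CPM in intermediate cells, 0.731. The median femur member held 16 UMIs of it and the median ectopic member 9, and members held 42.9% and 34.1% of the libraries' Cxcl2 UMIs. Ccl3 was higher, as given above, and Ccl6 was level at 1.01. Osm, the cytokine oncostatin M, was at 311 and 309 CPM (0.994), and Tnf at 72.5 and 61.7 CPM (0.851). Of 15 measured chemokines and cytokines, Ccl3 was the 1 higher and Cxcl2 the 1 lower gene, where 2.35% of all genes were higher and 12.2% lower.

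Genes that glucocorticoids induce were lower in ectopic members as a list. Of 14 measured members of that list 7 were 1.5-fold lower and none higher, with a median log2 ratio of -0.58, against 12.2% of all genes that were lower and a median of -0.07. The same list in intermediate cells had 9 of 15 lower and a median of -0.77. Tsc22d3, which encodes the glucocorticoid-induced leucine zipper, was at 275 and 157 CPM (0.570, 0.524 to 0.620). Fkbp5, a co-chaperone of the glucocorticoid receptor, was at 163 and 88.2 CPM (0.541, 0.484 to 0.605). Dusp1, a MAP kinase phosphatase, was at 2154 and 1244 CPM (0.577, 0.561 to 0.595), and its ratio was 0.586 in intermediate and 0.553 in B lineage cells. Tsc22d3 and Fkbp5 had ratios of 0.917 and 0.706 in B lineage cells. Per1, which is both a clock and a glucocorticoid-induced gene, was at 88.9 and 50.2 CPM (0.564, 0.485 to 0.654). Klf9, Ddit4 and Mt1 made up the 7, and each stood at 23.5 CPM or less in either library. The list shares Dusp1 with the immediate early list and Per1 with the clock list. Its median was -0.29 when each member was thinned to 1000 UMIs, and between -0.60 and -0.49 in the other settings. Among 10 measured clock genes 3 were lower and 1, Per2, was higher. Whether the 2 tissues were taken at the same hour of the day is not given in the sources used here, and a difference of collection time cannot be told apart from the site.

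**Figure D5:**
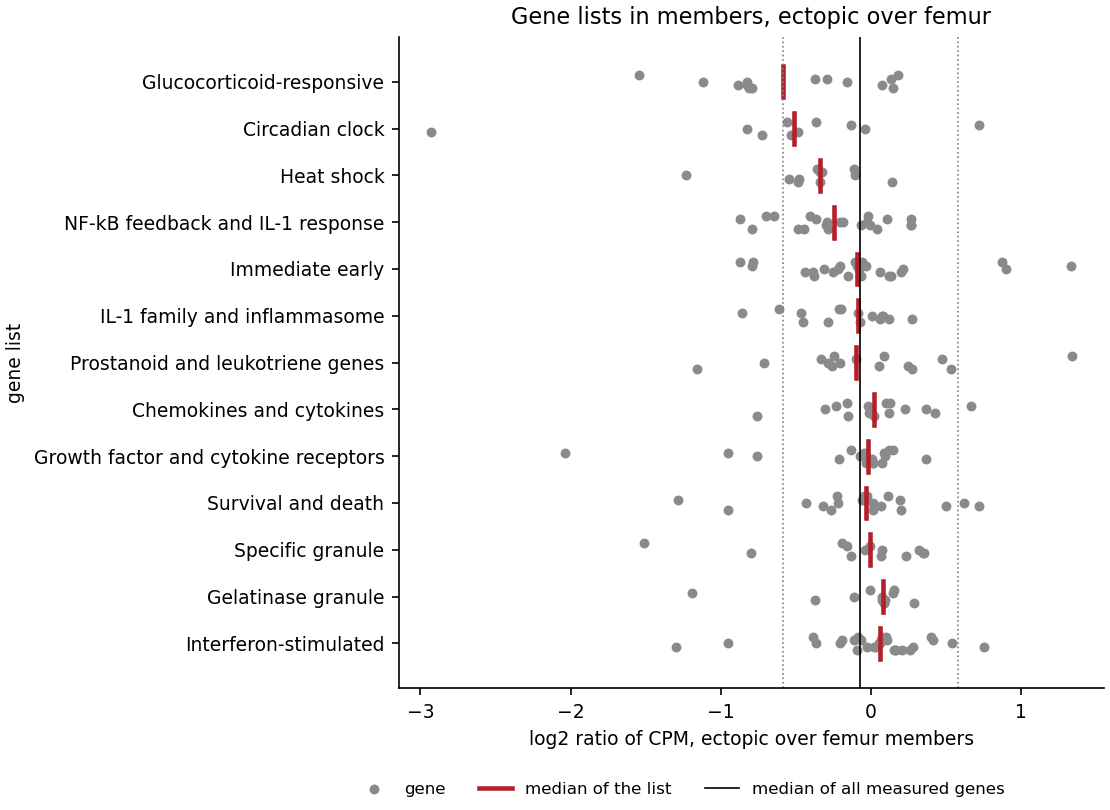
Log2 ratios of CPM, ectopic over femur members, for the measured genes (dots) of 13 lists, with the median of each list (thick bars) and the median of all measured genes (thin line, -0.07). Dotted lines mark 1.5-fold. Of the 13 lists shown, the glucocorticoid-responsive list has the lowest median, -0.58, and the interferon-stimulated and gelatinase granule lists lie at 0.06 and 0.08.

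Other lists of inducible genes did not share a direction. Counts in this paragraph are to be read beside the 2.35% of all measured genes that were higher and the 12.2% that were lower. Of 25 measured immediate early genes 3 were higher and 3 lower. Nr4a1, an orphan nuclear receptor, was at 49.4 and 90.6 CPM (1.83, 1.60 to 2.10) and Egr3 at 10.3 and 26.1 CPM (2.53), while Ppp1r15a, a regulator of the stress response, was at 101 and 58.8 CPM (0.580). Junb and Fos were near level, at 0.960 and 1.10, and Egr1 at 1.04. Of 11 measured heat shock genes 1 was lower, with a median log2 ratio of -0.34. Survival genes had 2 higher and 2 lower of 20. Mcl1 was at 1063 and 1220 CPM (1.15), and Birc3, an inhibitor of apoptosis that NF-kB induces, at 441 and 327 CPM (0.741). Of 29 measured interferon-stimulated genes 1 was higher and 2 lower, with a median of 0.06. Rsad2, which encodes viperin, was at 104 and 116 CPM (1.12), and Isg15 at 51.6 and 57.5 CPM (1.11). Members varied widely in this list, since after thinning to 1000 UMIs 27.2% (24.9 to 29.6) of femur and 21.3% (18.1 to 24.8) of ectopic members held 5 or more UMIs of it and single cells up to 38 and 60.

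Chemoattractant receptor, gelatinase granule and NADPH oxidase genes of the members were mostly close between the sites. Of 15 measured chemokine and chemoattractant receptors none passed 1.5-fold in either direction. Among all measured genes, 2.35% were higher and 12.2% lower in ectopic members. Cxcr2 was at 844 and 986 CPM (1.17, 1.12 to 1.21), Cxcr4, the receptor for the retention factor Cxcl12, at 146 and 177 CPM (1.21, 1.11 to 1.32), and Fpr2 at 216 and 260 CPM (1.20). Cxcr2 was one of the rule's genes. Icam1, an adhesion ligand that NF-kB induces, was at 42.4 and 13.3 CPM (0.313, 0.234 to 0.411) in few cells, 12.3% of femur and 6.17% of ectopic members. Retnlg, Mmp8 and Mmp9 had ratios of 1.05, 1.07 and 1.06, and 0.993, 1.01 and 0.988 without the highest doublet scores. Of 12 gelatinase granule genes Wfdc17 was the 1 lower gene. The 7 NADPH oxidase genes held none past 1.5-fold.

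Most measured azurophil granule genes and some cell cycle genes were lower in ectopic members, several of them with most UMIs in few cells. Of 9 measured azurophil granule genes 7 were lower in ectopic members, against 12.2% of all genes, with a median log2 ratio of -2.21. The median was -3.11 without members that carry other cells' markers and -1.47 without the highest doublet scores. The summed level of the 10 listed azurophil genes went the other way. It was 5245 CPM for femur members against 6256 CPM for ectopic ones, and 4260 against 5422 CPM for the median cell. Intermediate cells had the same order of sums, 7500 against 8127 CPM. Elane, neutrophil elastase, was at 127 and 14.1 CPM, and 5 cells carried 75.3% of its UMIs in femur members. Camp was at 712 and 409 CPM (0.576), with 46.2% of the femur UMIs in 5 cells, while Ltf and Ngp, of the same granules, were at 0.912 and 0.976. Irf8, a monocyte and dendritic cell factor, had a ratio of 0.404 over all members and 1.53 without the highest doublet scores. Of 22 cell cycle genes 7 were lower and none higher, against 12.2% of all genes that were lower, with a median log2 ratio of -0.38. Without members that carry other cells' markers 13 of the 22 were lower with a median of -1.01, counting genes that then fell under 50 UMIs. With the UMI minimum applied anew in each of 11 settings, the lowest median was -0.70, without the highest doublet scores.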

How the data were processed

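Single-cell RNA was measured in 1 femur and 1 ectopic library made with the 10x Chromium 3ʹ kit, version 3.1. The authors deposited UMI counts, not normalized, for 34184 listed genes in each cell. Cell Ranger made them, in version 7.0.1 per the file headers and on GRCm39 per the submitters' processing notes. The gene annotation is not given in the sources used here. The libraries held 123009924 and 86018367 UMIs in 11148 and 7214 barcodes.

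Counts were summed over members and over each other cell group and divided by the group's total (CPM). Ratios of sums carry exact 95% intervals for counting error, and shares carry exact binomial intervals (Clopper-Pearson). With 1 library per site there was no test between sites, and these intervals do not cover variation between mice. A gene was called at 1.5-fold with at least 50 UMIs over both groups. Cells were kept with doublets, and a score from simulated mixtures of 2 cells, leaving out 0.8% of cells for every 1000 kept cells, served as an alternative. The ratio code was tested on simulated data. The tools were Python 3.11.15 with scipy 1.17.1 for the intervals, numpy 2.4.6 and pandas 2.3.3 for the sums, scikit-learn 1.9.0 for the doublet score and edgeR 4.0.16 for TMM factors.

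The members and gene lists were chosen with earlier results of these data known. Genes named between members and intermediate cells are the 15 highest and 10 lowest by the smaller ratio of the 2 libraries, with at least 200 CPM in the higher group. Genes named between sites are the 10 highest and 10 lowest ratios with at least 100 CPM in 1 library and at least 0.5 times the level of the other kept cells there. Members of the lists with at least 100 CPM were named for abundance or ratio, and other list genes were named after their values were seen. Mitochondrial, ribosomal, globin and immunoglobulin genes were left out of the first 2 rules. Promoter sequences and coordinates come from RefSeq on GRCm38.p6, a different build from the counts, and were used by gene symbol only.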

Additional observations from a re-analysis of the deposited data

How the results depend on the processing

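The member share stayed lower in the ectopic library under all 8 alternatives for each denominator, with ratios of 0.670 to 0.694 of kept cells and 0.829 to 0.918 of neutrophils. Counts of genes past the fold moved more. Against 234 higher and 1218 lower genes in ectopic members, there were 400 and 589 without the highest doublet scores, 527 and 2086 with a minimum of 20 UMIs, 47 and 442 at a fold of 2, 411 higher with the mean of per-cell CPM and 245 lower with members thinned to 1000 UMIs. Without members that carry other cells' markers, chosen after seeing the data, 588 were lower. Against 813 higher and 289 lower genes than in intermediate cells, there were 395 and 527 with TMM factors, 209 and 104 at a fold of 2 and 314 and 154 after thinning. Thinning and leaving out cells reduced the genes measured, and on the 9976 genes measured at first 638 were higher and 1115 lower without the highest doublet scores, and 503 and 1386 without members that carry other markers. The 638 and 503 may include genes left without UMIs in a library, which were given 3 UMIs there. A higher fold and a lower minimum change the counts by construction. For TMM factors and per-cell means the cause was not tested. The 20 genes named between the sites, Cxcl2, Nlrp3 and Acod1 kept their direction in 11 of 11 settings, and Il1r2 in 9. Ptgs2 ranged from 1.34 to 1.53, Nfkbia from 0.543 to 0.609 and Cxcl2 from 0.504 to 0.625. No paired analysis was possible because each site has 1 library and its number comes from accession order. The limits are that 1 library per site means that site, mice, collection time and library preparation cannot be told apart, and that a sum over 600 ectopic members cannot resolve genes of a few CPM.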
